A study of Caenorhabditis elegans with 2 samples.

Results

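Small nucleolar RNA (snoRNA) genes of Caenorhabditis elegans were examined for binding of DPL-1, the worm DP protein, a partner of E2F transcription factors. The 346 genes annotated as snoRNA on the 6 nuclear chromosomes of WBcel235 (the assembly also called ce11) were taken, out of 46890 annotated nuclear genes, and each was extended by 200 bp on both sides. A gene was said to have a peak where the summit of a peak from the list thresholded by irreproducible discovery rate (IDR) lay in that interval. This held for 77 of the 346 genes (22.3%), against 6.54% of the genes of all other biotypes. Those include 15363 piRNA genes, of which 0.247% had a summit. The chromatin immunoprecipitation sequencing used intact L4 stage animals of strain OP105, both sexes together, in 1 group with 2 biological replicates and no other condition. The strain carries the unc119(ed3) allele and the transgene wgIs105, in which dpl-1 is fused to TY1, EGFP and FLAG and which also holds unc119. The labels do not name the promoter that drives the fusion, so a signal shows where the tagged protein was recovered in the pooled tissues of a whole animal. The IDR list holds 3369 peaks with a signal from 46.4 to 5205 in the authors' units, and the read depth behind them is unknown because the lists hold no counts.

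Box C/D snoRNAs guide methylation of the ribose and box H/ACA snoRNAs guide pseudouridylation of ribosomal and spliceosomal RNA. A snoRNA may be cut out of the intron of a host gene, whose promoter then sets its synthesis, or it may be transcribed from a promoter of its own by RNA polymerase II or III. In tRNA genes polymerase III is recruited through an A box and a B box inside the gene and stops at a run of T. DP and E2F proteins are best known at promoters of genes for cell cycle progression and DNA replication. Most worm snoRNA genes carry only a clone name, and no target RNA is given for them here.

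Upstream of many of the genes with a peak lay 2 arrangements of letters that are shown here. They were found by comparing the genes with and without a summit, so their counts are a description and not a test. The GAAC element is GNAACNCG followed, after 3 to 9 bases, by TGTC. The other arrangement uses letters of tRNA genes: an A box of TGG, 3 bases, A, 2 bases and GG, and a B box of GTTCNANNC. Each sequence below was read from the WBcel235 genome (RefSeq) on the strand of the snoRNA gene, from 100 bases before its annotated 5′ end through its first 15 bases, and capitals mark the elements. The first set holds the 5 genes with the highest signal among those with a summit and the GAAC element, in the order of their signal, leaving out genes on the first chromosome.

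Y53F4B.47: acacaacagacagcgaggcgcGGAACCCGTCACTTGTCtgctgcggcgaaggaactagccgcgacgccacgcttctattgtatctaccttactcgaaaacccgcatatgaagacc
ZK994.7: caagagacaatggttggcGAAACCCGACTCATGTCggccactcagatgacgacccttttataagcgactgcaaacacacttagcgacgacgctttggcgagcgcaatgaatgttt
Y55F3BR.9: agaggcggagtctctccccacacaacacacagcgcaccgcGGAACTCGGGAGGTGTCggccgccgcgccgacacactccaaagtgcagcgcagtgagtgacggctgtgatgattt
F01D5.12: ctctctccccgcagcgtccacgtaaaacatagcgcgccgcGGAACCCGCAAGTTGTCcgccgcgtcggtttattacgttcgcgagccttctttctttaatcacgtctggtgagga
T06D8.11: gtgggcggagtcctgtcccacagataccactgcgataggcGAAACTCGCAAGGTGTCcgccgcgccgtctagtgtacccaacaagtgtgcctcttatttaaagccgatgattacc

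These stretches are Y53F4B.47 II:15025879-15025993 on the minus strand, ZK994.7 V:8500479-8500593 on the plus strand, Y55F3BR.9 IV:867119-867233 on the minus strand, F01D5.12 II:14018427-14018541 on the minus strand and T06D8.11 II:11224082-11224196 on the plus strand. The capitals begin 79 bases before the 5′ end in Y53F4B.47, 82 bases before it in ZK994.7 and 60 bases before it in the other genes of the set. The next set holds the 5 genes with the highest signal among those with a summit and both the A box and the B box.

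Y75B12B.12: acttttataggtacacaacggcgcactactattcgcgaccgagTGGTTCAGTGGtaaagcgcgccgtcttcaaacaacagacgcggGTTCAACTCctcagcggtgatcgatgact
M106.6: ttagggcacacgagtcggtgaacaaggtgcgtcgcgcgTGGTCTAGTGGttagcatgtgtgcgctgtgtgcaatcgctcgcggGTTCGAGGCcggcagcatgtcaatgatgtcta
F30H5.4: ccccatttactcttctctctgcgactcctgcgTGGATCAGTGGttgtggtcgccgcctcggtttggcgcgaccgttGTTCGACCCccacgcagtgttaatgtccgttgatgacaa
T03F7.8: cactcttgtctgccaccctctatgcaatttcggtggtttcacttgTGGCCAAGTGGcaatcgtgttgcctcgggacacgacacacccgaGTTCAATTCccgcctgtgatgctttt
C41C4.11: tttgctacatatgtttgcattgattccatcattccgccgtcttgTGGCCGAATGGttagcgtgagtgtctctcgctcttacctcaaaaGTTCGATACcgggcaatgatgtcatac

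They are Y75B12B.12 V:15191079-15191193 on the minus strand, M106.6 II:10840217-10840331 on the plus strand, F30H5.4 III:502704-502818 on the plus strand, T03F7.8 V:11314158-11314272 on the plus strand and C41C4.11 II:8107256-8107370 on the minus strand. In the 5 genes the A box begins 55 to 68 bases and the B box 11 to 24 bases before the annotated 5′ end, so the B box ends just outside the annotated RNA. The last set shows the gene with the strongest summit of all, which holds neither arrangement, a gene that holds the GAAC element but has no IDR summit, and a gene in an intron of nol-56, a host described below.

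F09G2.14: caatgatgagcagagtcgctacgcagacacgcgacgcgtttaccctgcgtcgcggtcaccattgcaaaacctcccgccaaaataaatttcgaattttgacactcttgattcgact
T08B6.64: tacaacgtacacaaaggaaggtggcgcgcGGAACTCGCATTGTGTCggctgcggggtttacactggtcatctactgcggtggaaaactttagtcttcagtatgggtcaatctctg
K07C5.18: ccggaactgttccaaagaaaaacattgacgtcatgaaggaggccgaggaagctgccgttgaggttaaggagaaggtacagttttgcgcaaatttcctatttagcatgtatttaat

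They are F09G2.14 V:7196566-7196680 on the minus strand, T08B6.64 IV:4880836-4880950 on the minus strand and K07C5.18 V:10350898-10351012 on the minus strand. F09G2.14 had a signal of 703, T08B6.64 reached 41.3 in the relaxed pooled list, below the lowest IDR signal, and K07C5.18 had no summit in either list.

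A DPL-1 summit lay in the interval of 22.3% of the snoRNA genes (77 of 346, 95% exact Clopper-Pearson interval 18.0 to 27.0%), against 6.54% of the 46544 genes of other biotypes under the same rule. The latter share is lowered by 15363 piRNA genes with a median length of 21 bp, of which 0.247% had a summit. Long genes have wider intervals, and even so protein-coding genes reached 11.2% with a median length of 2027 bp, while snoRNA genes have a median length of 130 bp. Among the short classes 26.0% of the 612 tRNA genes and 16.3% of the 129 snRNA genes had a summit, against 3.83% of the 261 miRNA genes. The tRNA share lies inside the snoRNA interval, and the snRNA and miRNA shares lie below it. The intervals cover 0.182% of the nuclear genome and held 77 of the 3369 summits, or 2.29%. Intervals given here cover the counting of genes only.

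The genes were split by their place. Of 150 genes inside an intron of a protein-coding gene on the same strand, called hosted below, 25 had a summit (16.7%, 11.1 to 23.6%). Without such a host, 52 of 196 genes had one (26.5%, 20.5 to 33.3%). These 196 comprise 28 genes in an intron of a gene on the opposite strand with 11 summits, 44 genes that overlap a coding gene's exon with 6, and 124 genes outside protein-coding genes with 35. The difference between these shares was not tested.

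**Figure D1:**
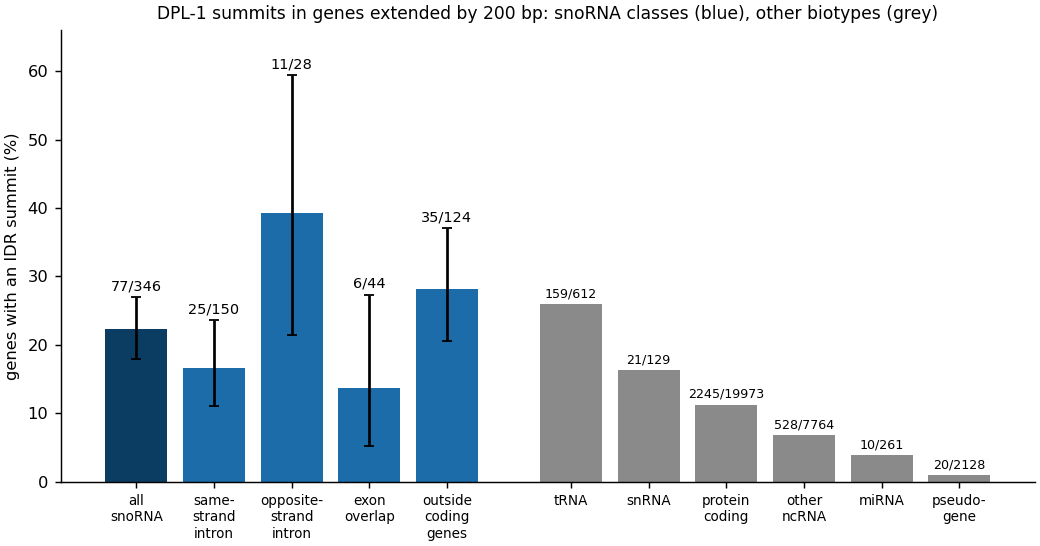
Share of genes (%) with an IDR summit in the gene extended by 200 bp, for all snoRNA genes and their 4 places in the genome (blue, with 95% exact intervals) and for 6 other biotypes (grey), each bar labelled with its counts. The opposite-strand intron class stands highest at 11 of 28, with the widest interval.

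Where the summit lay was more uniform than how many genes had one. The strongest summit lay upstream of the annotated 5′ end in 70 of the 77 genes, with a median of -47 bp and quartiles of -65 and -27 bp. In 62 genes (80.5%) it fell from 100 to 10 bp upstream, a band of 91 bp that makes up 17.2% of the median interval of 530 bp. The band was not among the planned measures, so its shares are a description and not a test. By the summits of single replicates 48 of 73 genes (65.8%) had the summit in the band in replicate 1 and 60 of 77 (77.9%) in replicate 2. Those summits were sought only within 100 bp of the IDR summit, so their positions are not independent of it. Hosted genes had a median of -50 bp (21 of 25 in the band), and genes without a host had a median of -44 bp (41 of 52). Of the tRNA genes with a summit 44.0% had it in the same band, of the snRNA genes 90.5% and of the protein-coding genes 19.6%. The position therefore resembled that at snRNA genes, whose median was -39 bp, more than that at tRNA genes, whose median was -13 bp.

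**Figure D2:**
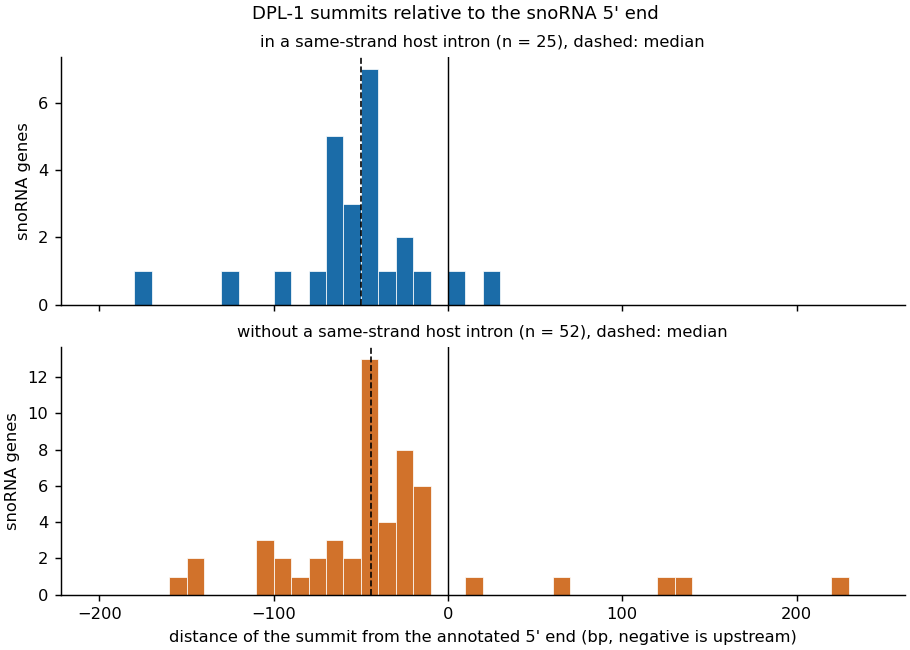
Number of snoRNA genes by the distance of the strongest IDR summit from the annotated 5′ end, in bp with negative values upstream, for genes in a same-strand host intron (top, n = 25) and without one (bottom, n = 52), dashed lines marking the medians of -50 and -44 bp. Both groups pile up in the 100 bp before the gene, and few summits lie inside or beyond it.

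The exceptions to this position were few. Summits lay more than 100 bp upstream in 8 genes, and 7 genes had one at the 5′ end or downstream of it. The farthest was C26C6.13, with its summit 225 bp downstream of the 5′ end and past the 3′ end of the 180 bp gene. C51F7.4 and C51F7.3 are neighbours that share 1 summit of signal 130, which lies 13 bp upstream of C51F7.4 and 122 bp upstream of C51F7.3, so the 77 genes rest on 76 strongest peaks.

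The 5 genes with the highest signal outside a host intron all shared their summit with the promoter window of a protein-coding gene, taken as 500 bp upstream to 200 bp downstream of any transcript start. F09G2.14 (V:7196237-7196580) had a signal of 371 in replicate 1 and 351 in replicate 2, 703 in the IDR list and a summit 78 bp upstream, in the window of F09G2.2. Y53F4B.47 (II:15025814-15025893) had 233 and 314 in the replicates and 525 in the IDR list, with its summit in the window of cmtr-1, a cap methyltransferase. C36E8.11 (III:4004435-4004617) had 178 and 159 in the replicates and 331 in the IDR list, in the window of tif-1A, an initiation factor of RNA polymerase I. F39B2.14, which overlaps an exon of tmem-107, had 131 and 192 in the replicates and 321 in the IDR list, in a window it shares with rps-26, a protein of the small ribosomal subunit. D2021.6 (X:8546076-8546204) had 107 and 160 in the replicates and 257 in the IDR list, in the window of sdha-1, a subunit of succinate dehydrogenase. At these genes a peak cannot be assigned to the snoRNA gene or to the neighbour from its position.

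Below them the summits mostly stood alone. Of the 77 genes, 54 (70.1%) had their strongest summit outside every protein-coding promoter window, against 37.0% of all 3369 IDR summits. F59C6.15 was the strongest of these, with 79.8 and 126 in the replicates and 213 in the IDR list and a summit 48 bp upstream. Y55F3BR.9 (IV:867056-867133), in an intron of Y55F3BR.2 on the other strand, had 59.1 and 110 in the replicates and 175 in the IDR list. M7.15 had 76.4 and 68.1 in the replicates and 141 in the IDR list, and F32E10.10 had 43.1 and 93.8 and an IDR signal of 139, both on chromosome IV. T23G11.12 (163), Y75B12B.12 (152) and Y53F4B.48 (133) lay in windows of T23G11.11, Y75B12B.11 and of gst-27, a glutathione S-transferase. The other genes among the 20 strongest without a host were F25H2.15, C51F7.4, T04A8.17, C26C6.13, ZK484.9, F30H5.4, T27A3.9 and T02E1.9, with IDR signals from 112 to 159, and of these only T02E1.9 lay in a promoter window.

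Hosted genes had a median signal of 93.6 with a range of 48.4 to 207, and genes without a host had a median of 104 with a range of 46.9 to 703. The median over all 3369 IDR peaks was 99.3, and that over the 77 genes was 100.1, so peaks at snoRNA genes were of ordinary height. ZK994.7, in an intron of pxn-1, a peroxidasin, was the strongest hosted gene with 67.6 and 149 in the replicates and 207 in the IDR list, with its summit 57 bp upstream. The gene lies 5690 bp from the nearest pxn-1 start. F01D5.12 in F01D5.10 had 43.1 and 98.2 in the replicates and 131 in the IDR list, and M106.6 in mix-1, a condensin subunit, had 53.6 and 82.1 in the replicates and 130 in the IDR list. C51F7.3 in frm-7 had 58.8 and 84.7 in the replicates and 130 in the IDR list. Each of these 4 hosted genes had a higher signal in replicate 2 than in replicate 1, on scales that were set separately for each replicate. T08B2.13 in fars-1, a phenylalanyl-tRNA synthetase, T06D8.11 in plpr-1, C05D2.15 in madf-11, F55A11.10 in F55A11.6 and Y43F8C.22 in Y43F8C.7 followed with 101 to 117. C16D9.11 in rol-3, Y38F2AR.14 in Y38F2AR.12, W08G11.6 in W08G11.3, F11A10.9 in rbm-34 and C08D8.3 in C08D8.1 had 87.0 to 101. Among these 15 genes the summits of Y37E3.20 (144) and F55A11.10 alone lay in the promoter window of their own host, pcyt-2.1 for Y37E3.20.

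Most summits at hosted genes were not those of the host promoter. Of the 25, 18 lay in no protein-coding promoter window, 6 lay in the window of the host and 1 in that of another gene. Position was measured from the nearest start of any host transcript, with negative values upstream. Its median was 1392 bp for the genes with a summit and 706 bp for the 125 hosted genes without one. Both sets hold genes upstream of the nearest start, such as smy-2 (-256 bp, with a summit) and K10G6.10 (-5020 bp, without). These medians mix signs and are not distances downstream. Intron length did not set genes with and without a summit apart, with medians of 350 bp with a summit and 390 bp without. Of the 146 introns that hold a hosted snoRNA gene 31 held an IDR summit (21.2%, median length 374.5 bp), against 0.566% of all 109051 introns of protein-coding genes, which are shorter (median 68 bp). That difference in length goes with a difference in summits, and its part was not tested.

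Host promoters often carried a summit, and yet 16 of the 25 hosted genes with a summit lay in a host whose promoter had none. Of the 130 hosts 53 had a summit in the promoter window (40.8%, 32.2 to 49.7%), against 13.5% of all 19973 protein-coding genes. With the window narrowed to 200 bp upstream and 100 bp downstream 25 hosts had one, against 7.60% of protein-coding genes. Both the snoRNA gene and its host promoter had a summit in 9 of the 150 hosted genes, the snoRNA gene alone in 16, the host promoter alone in 62 and neither in 63. In 6 of the 9 the snoRNA summit itself lay in the host window, and in 3 it was separate: M106.6 (130) beside the mix-1 promoter (415), C05D2.15 (105) beside madf-11 (193) and Y43F8C.22 (101) beside Y43F8C.7 (107). Under a host promoter with a summit 12.7% of the 71 snoRNA genes had a summit in their interval (5.96 to 22.7%). Under one without, 20.3% did (12.0 to 30.8%), and these confidence intervals overlap. The 12.7% counts the 6 genes whose summit lay in the host window, and only 3 of the 71 had a separate one.

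Hosts with several snoRNA genes and ribosomal protein hosts stood at one end. All 13 hosts named rpl or rps, which encode cytosolic ribosomal proteins, had a promoter summit (75.3 to 100%), against 40.8% of all hosts. None of their 19 snoRNA genes had a summit (an exact upper bound of 17.6%). That bound holds the 16.7% of all hosted genes. None of the 19 held an A box, a B box or a GAAC element upstream, and of all hosted genes with none of these 3.39% had a summit. The absence of summits is thus not particular to these hosts. Outside that naming, ubl-1, which encodes a ubiquitin fused to a ribosomal protein, had a promoter signal of 308, and mrps-2, a mitochondrial ribosomal protein gene, had no promoter summit. The 16 hosts with 2 or more snoRNA genes had a promoter summit in 14 cases and no summit at any of their 36 snoRNA genes. They include rpl-6, rpl-7A, rpl-15, rps-12 and rps-29, so this set and the ribosomal set overlap. The 3 hosts with at least 3 snoRNA genes were top-2, DNA topoisomerase II, with a promoter signal of 1478, nol-56, a core protein of box C/D particles, with 439, and rpl-6, a protein of the large ribosomal subunit, with 403. The 4 snoRNA genes of nol-56, the 3 of top-2 and the 3 of rpl-6 had no IDR summit in their intervals, and none of these 10 genes held either arrangement of letters.

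The elements shown above lay before most genes with a summit and before few without. At least 1 of the A box, the B box and the GAAC element lay in the 120 bases upstream of 52 of the 77 genes with a summit (67.5%), against 33 of the 269 genes without (12.3%). In the same stretch before the 19973 protein-coding genes 2.42% held one. The GAAC element lay before 19 genes with a summit (24.7%) and 12 without (4.46%), against 0.0601% of protein-coding genes and 22.5% of snRNA genes. The A box or the B box lay before 33 with a summit (42.9%) and 21 without (7.81%), against 2.36% of protein-coding genes, and both boxes before 11 with and 3 without, against 0.0150%. No gene with a summit held the GAAC element together with an A or B box. As a check on the letters, the A box was found inside 55.4% and the B box inside 95.9% of the 612 tRNA genes.

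Among hosted genes the shares with and without an element lay furthest apart. Of 32 hosted genes with an element 21 had a summit (65.6%, 46.8 to 81.4%), against 4 of 118 hosted genes without one (3.39%, 0.931 to 8.45%). Without a host, 31 of 53 genes with an element had a summit (58.5%, 44.1 to 71.9%), against 21 of 143 without (14.7%, 9.33 to 21.6%). With an element, hosted genes and genes without a host thus had shares whose intervals overlap. The letters were chosen with the summits known, and these intervals do not allow for that choice.

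**Figure D3:**
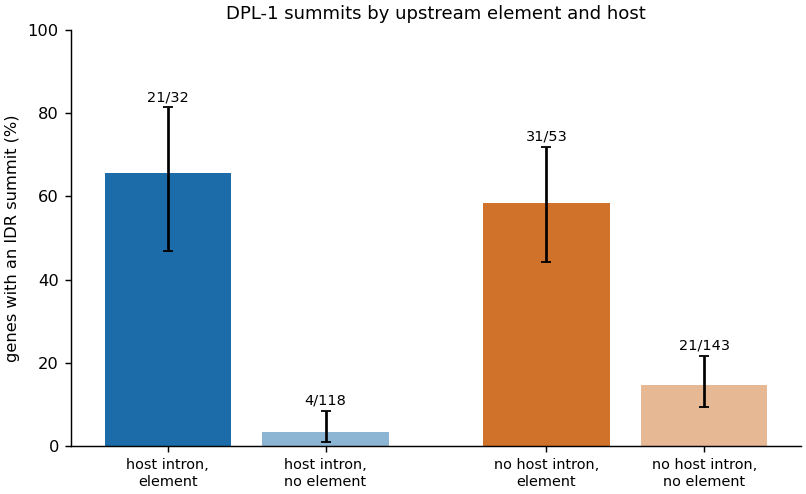
Share of snoRNA genes (%) with an IDR summit, by whether the 120 bases upstream hold the GAAC element, the A box or the B box, for genes in a same-strand host intron (blue) and without one (orange), with 95% exact intervals and counts. Shares with an element are 65.6 and 58.5%, and without one 3.39 and 14.7%. The intervals do not allow for the choice of the letters, which was made with the summits known.

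In genes with a summit the elements began within a narrow range of distances before the gene. The GAAC element began a median of 60 bases upstream (range 82 to 56), the A box 58 bases (68 to 50) and the B box 14.5 bases (46 to 9). In genes without a summit the median start of the GAAC element was -61.5 bp (-75 to -58). That of the A box was -61 bp (-117 to -34) and that of the B box -12 bp (-68 to -11). The place of the GAAC element was thus not particular to genes with a summit. The summit lay a median of 15 bp downstream of the start of the GAAC element and 12 bp downstream of the start of the A box, and its median position from the start of the B box was -31.5 bp. Median summit positions were -47 bp for the genes with the GAAC element and -47 bp for those with an A or B box. The 25 genes with neither had -49 bp, so this position was not particular to either arrangement. Signals had medians of 107 with the GAAC element, 100.1 with an A or B box and 93.6 with neither.

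**Figure D4:**
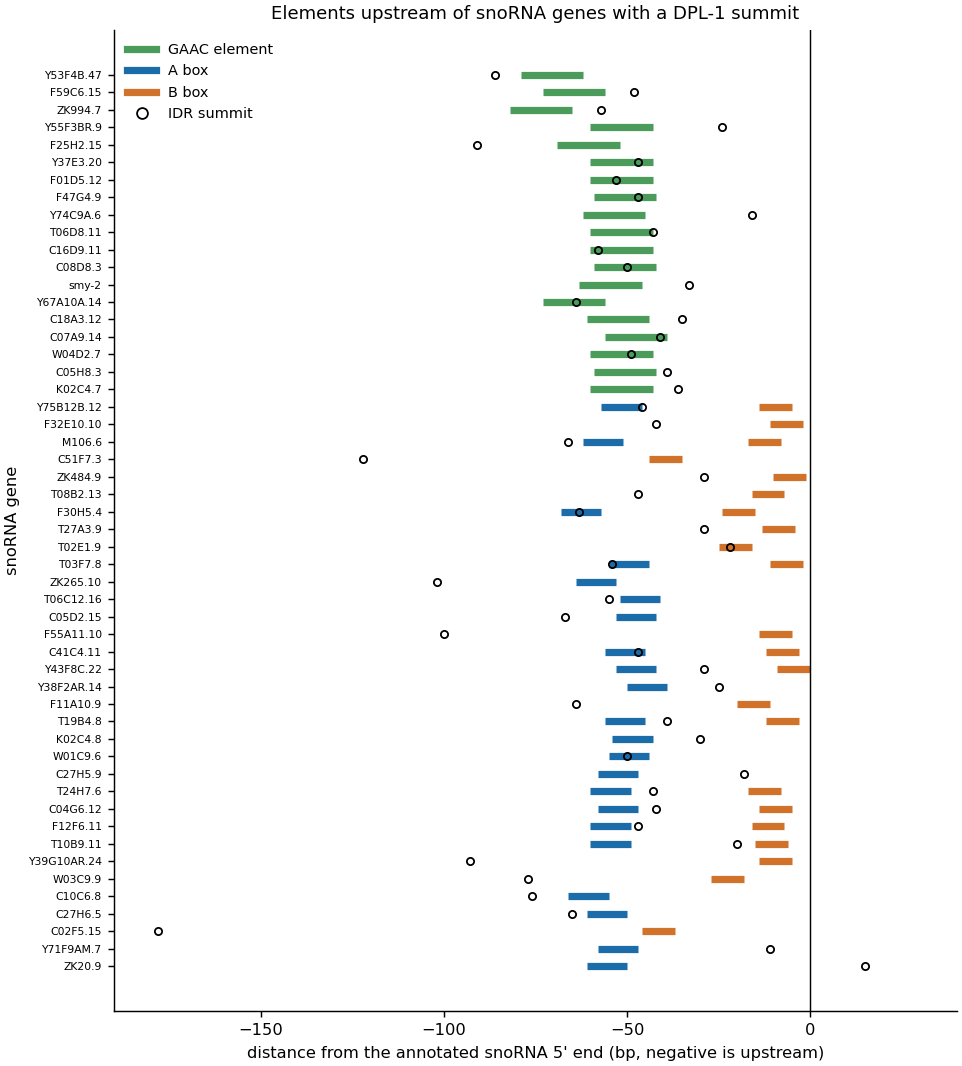
Position of the GAAC element (green), the A box (blue), the B box (orange) and the IDR summit (open circle) relative to the annotated 5′ end, in bp with negative values upstream, for the 52 snoRNA genes with a summit and an element, ordered by arrangement and then by signal. The elements line up at about the same distance from gene to gene, and the summits scatter more widely, around a median of -47 bp in either arrangement.

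A run of TTTT, the letters at which polymerase III stops, lay in the 20 bases downstream of the annotated 3′ end in 49 of the 77 genes with a summit (63.6%), against 96 of the 269 without (35.7%). It lay there in 98.4% of tRNA genes and in 40.3% of protein-coding genes. Among the genes with a summit it was found in 29 of 33 with an A or B box, in 12 of 19 with the GAAC element and in 8 of 25 with neither. The summit lay in a protein-coding promoter window in 7 of the 33 genes with an A or B box, in 5 of the 19 with the GAAC element and in 11 of the 25 with neither.

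As a rough division by RNA class, a gene was called C/D-like where TGANGA lay in its first 25 bases and CTGA in its last 20. Of 30 such genes 14 had a summit (46.7%, 28.3 to 65.7%), against 63 of the other 316 (19.9%, 15.7 to 24.8%). An upstream element lay before 20 of the 30, against 65 of the 316, so the class and the elements moved together, and the part of each was not tested. An annotated end can differ from the end of the mature RNA, so genes can be missed by this rule.

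Genes without an IDR summit were looked up in the relaxed pooled list, which holds 30000 peaks down to a signal of 8.83. Of the 269 genes 79 had a weaker summit there, with a median signal of 20.2. The share of genes of other biotypes with a summit in that list is not given here, so this count has no background beside it. Where an element lay upstream 13 of 33 had one and 7 of these lay 100 to 10 bp upstream, against 66 of 236 and 17 of these where none did. The strongest below the threshold were F38E11.14 (46.2), C34E11.20 (45.4) and F25H5.9 (44.8), and the weakest above it were ZK20.9 (46.9), Y49E10.36 (48.4) and K11C4.6 (52.7). By distance the nearest summits just outside the interval lay 215 bp from W06H8.17 and 226 bp from R166.10, and the farthest inside lay 178 bp from C02F5.15 and 159 bp from C54G4.16.

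A relaxed summit lay within 100 bp of the IDR summit in both replicates for 73 of the 77 genes, and in replicate 2 alone for C07A9.14, K02C4.7, W04D2.7 and ZK20.9, whose IDR signals were 46.9 to 68.3. The IDR list was made from these replicate lists, so such support is largely built into it and is no separate evidence. In replicate 1 the signals ran from 9.35 to 371 and in replicate 2 from 14.2 to 351 over the 73 genes. Median positions were -53 bp in replicate 1 and -47 bp in replicate 2. The summits of the replicates lay a median of 28 bp apart, so differences of that size between genes cannot be resolved.

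**Figure D5:**
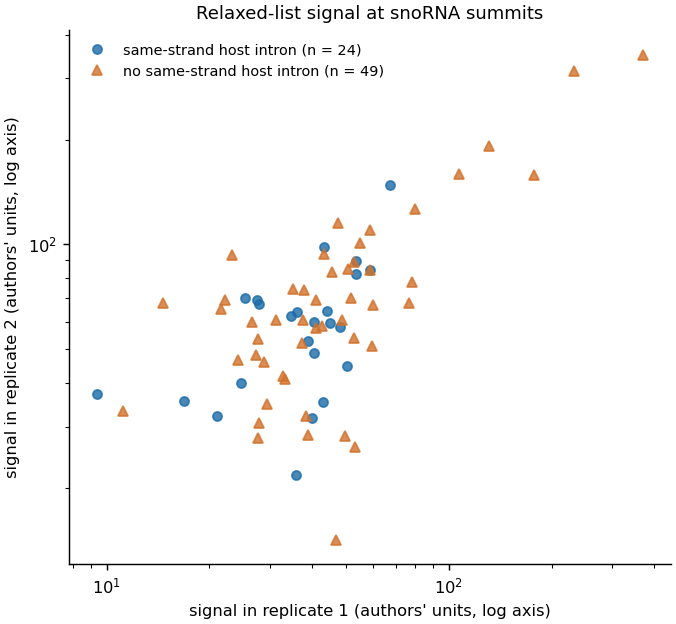
Signal of the relaxed-list peak within 100 bp of the IDR summit in replicate 1 (horizontal) and replicate 2 (vertical), both on log axes in the authors' units, for 24 hosted genes (circles) and 49 genes without a host (triangles). The same few genes without a host are highest in both replicates, and the rest form 1 cloud below them.

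By chromosome the share was 25.7% on I (19 of 74), 26.8% on II (19 of 71), 14.8% on III (8 of 54), 23.7% on IV (14 of 59) and 29.1% on V (16 of 55). On X it was 3.03% (1 of 33, 0.0767 to 15.8%), and the only gene was D2021.6, whose summit lies in the sdha-1 window. Shares over all genes of each chromosome are not given here, so the low share on X cannot be called particular to snoRNA genes. Near copies were few: 8 genes share at least 50% of their 20-base words with another snoRNA gene, and 4 of these have a summit: F59C6.15, F25H2.15, Y67A10A.14 and Y53F4B.47. All 4 hold the GAAC element, so near copies are not separate examples of it. Reads from such copies may have been placed on either, and without these genes 73 had a summit at an unchanged median of -47 bp. No tRNA or snRNA gene lay in any of the 346 intervals, and genes of the broad ncRNA biotype lay in 27 of 77 intervals with a summit, against 32 of 269 without. Their part in the result was not tested. The nearest snoRNA gene to dpl-1, which the transgene repeats, was C16D2.4 at 33544 bp.

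The E2F site and the CHR element, which are sites of DPL-1 partners, and a GAGAG repeat were looked for on both strands within 100 bp of the 76 summits. The E2F site was searched as TTCCCGC, as TTCGCGC, as TTGCCGC and as TTGGCGC. It lay in 11 of the 76 windows (14.5%, 7.45 to 24.4%), against 19.9% of all 3369 IDR windows. The CHR element of DREAM target promoters, as TTTGAA or TTCGAA, lay in 21 (27.6%, 18.0 to 39.1%), against 48.8%. Within 200 bp of the summit the CHR shares were 65.8% (54.0 to 76.3%), against 74.3%, a share that this interval holds. A GAGAG repeat lay in 42 (55.3%, 43.4 to 66.7%), against 54.1%. Within 100 bp the exact interval holds the share of all windows for GAGAG and for the E2F site and lies below it for the CHR letters. Within 200 bp it holds that share for the CHR letters too. No site of a factor follows from a match or its absence.

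The protein genes of the snoRNA particles had their own peaks. Of the 11 genes on the list 10 had a summit in the promoter window, against 13.5% of all protein-coding genes, with a median signal of 408, against 147 over all protein-coding genes with a summit. In the narrower window of 200 bp upstream to 100 bp downstream 4 of the 11 had one, against 7.60%. In box C/D particles the core protein gene nol-58 reached 1089 (581 in replicate 1 and 503 in replicate 2), nol-56 reached 439 (189 and 245), fib-1, the fibrillarin methyltransferase, 262 (104 and 161) and snu-13, which binds the box C/D fold, 238 (102 and 139). In box H/ACA particles Y48A6B.3 reached 990 (468 and 519), dkc-1, the pseudouridine synthase, 377 (158 and 219) and garr-1, the GAR1 counterpart, 149 (72.5 and 84.7), and nola-3, the NOP10 counterpart, had no summit. Of the assembly factors dao-5, the Nopp140 counterpart, reached 576 (357 and 236), ruvb-2, an AAA ATPase, 547 (264 and 302) and its partner ruvb-1 132 (61.5 and 52.5). The windows of nol-58, fib-1, snu-13, dkc-1, Y48A6B.3 and ruvb-1 were shared with a neighbouring gene, so 6 of these 10 summits have another candidate promoter.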

How the data were processed

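The lists are narrowPeak files for 2 replicates of 1 group. Per the deposited file listings, a relaxed list was made for each replicate from its reads and a control, another from the pooled reads, and the IDR list from these 3. The sources used here do not give the caller, the aligner or their versions. Peak signal was computed by the authors on a scale that is not stated, and it served only to rank and describe peaks within a list. The -log10 q deposited by the authors was equal for all IDR peaks and was not used for ranking. Summits were placed by the offset in the deposited lists, 1-based on ce11. Lists on ce10 were not used.

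Genes, introns and transcript starts came from Ensembl release 115 of WBcel235, and sequence from RefSeq. All peaks and genes fitted within the RefSeq chromosomes. Where several summits lay in an interval, the strongest was taken. Counts have 95% exact intervals (Python 3.11.15, scipy 1.17.1, pandas 2.3.3, numpy 2.4.6), and no test was run, since there is 1 group. Assignment of summits and the search for elements were tested on simulated data. Named genes are the 20 strongest without a host, the 15 strongest hosted with their hosts, hosts of at least 3 snoRNA genes and the snoRNP list, and others were named after their values were seen. The members, lists, elements and alternatives were chosen with earlier results of these data known. The control reads and other factors' peaks were not analysed here.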

Additional observations from a re-analysis of the deposited data

How the results depend on the processing

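No paired analysis was possible because there is 1 group. Of 77 alternative values 54 stayed within 1.5 times the count or within the spread between replicates, 22 moved further and 1 changed sign. The interval mattered most: with no extension 5 snoRNA genes had a summit (2 hosted, 3 without a host), 2 of them outside every promoter window and 3 with a summit in both replicates, with a median signal of 74.8 and a median position of 29 bp, on the other side of the 5′ end, since a summit upstream is then left out by construction. With the stronger part of the IDR peaks, above the median signal, 39 genes had a summit (12 hosted, 27 without a host, 26 outside every window), and with the relaxed pooled list 156 (56, 100 and 123), with 91 hosts. Shares over all other genes are not given for these lists, so the counts are not set against a background. Promoter windows of 200 bp upstream to 100 bp downstream left 25 hosts and 4 snoRNP genes. Within 200 bp of the summit 50 windows held the CHR letters (65.8%, against 74.3% of all IDR windows). The elements searched on the opposite strand, chosen after seeing the data, gave 4 genes, and since the letters were picked on the gene's own strand this count carries no evidence. Leaving out a replicate gave 68 to 85 genes (20 to 30 hosted, 48 to 55 without a host, 49 to 61 outside every window), 52 to 55 hosts, 10 snoRNP genes, a median signal of 41.0 to 60.8, on each replicate's own scale, and a median position of -53 to -47 bp. Apart from the interval and the opposite strand, the cause of these changes was not tested. Depth is unknown, so a gene without a summit may lie below what these libraries can show.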
